A study of Mus musculus with 28 samples.

Results

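The comparison described here is between MOZ-TIF2 cells and fresh c-Kit+ bone marrow cells, read as bulk RNA in 2 libraries a side. These 4 libraries, out of 28 samples in the series, are all that it holds of the 2 groups, and every gene of their count table was considered. All cells were mouse, strain C57Bl/6, and came from the c-Kit+ fraction of bone marrow, which holds haematopoietic stem and progenitor cells (HSPCs). The MOZ-TIF2 cells, a line that the labels call Ty1.MOZ-TIF2, had been given the fusion gene with a Ty1 tag by a retrovirus, were sorted for GFP, and then spent 4 days in medium with cytokines. The fresh cells were taken as isolated, with no virus, no GFP sort and no culture. The effects of the fusion, the virus, the sort and the culture therefore cannot be told apart in this comparison. The same table holds 2 libraries of c-Kit+ cells that carried an empty vector and were sorted and cultured in the same way (called differentiated in the labels). They share the estimate of the spread, and their values are given for some results only. A difference given without them may or may not be shared by empty-vector cells. Age, sex and number of mice are not given, and nothing says that the libraries of a group came from separate mice or cultures. The p-values thus measure only the spread between these libraries, which may be technical.

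MOZ-TIF2 joins MOZ, a histone acetyltransferase encoded by Kat6a, to TIF2, a nuclear receptor coactivator encoded by Ncoa2 that binds the acetyltransferases CBP and p300. The fusion arises in acute myeloid leukaemia and lets committed myeloid progenitors of the mouse renew themselves. MOZ itself is needed for normal blood stem cells and for the activity of HOX genes, which encode homeobox transcription factors of progenitors. Six4 is a DNA-binding homeobox protein of the retinal determination network, in which EYA proteins are coactivators and phosphatases, and DACH proteins are corepressors.

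The libraries held 34463785 and 33010627 estimated counts for MOZ-TIF2 replicates 1 and 2, against 12397443 and 15550914 for fresh replicates 1 and 2, and values below are given in that order of replicates. Levels are given as CPM, counts scaled to 1000000 a library after TMM scaling. Across genes the MOZ-TIF2 libraries correlated at r = 0.960 and 1571 genes differed over 2-fold between them, against r = 0.987 and 284 genes for the fresh libraries. The partner genes did not single out the MOZ-TIF2 libraries. Ncoa2 read 89.8 and 105 CPM in MOZ-TIF2 cells and 34.4 and 47.8 CPM in fresh cells and 153 and 113 CPM in empty-vector cells. Kat6a read 82.9 and 109 CPM in MOZ-TIF2 cells and 50.4 and 61.05 CPM in fresh cells and 175 and 122 CPM in empty-vector cells. The species of the fusion cDNA is not given in the sources used here. Y-linked genes differed between libraries: Eif2s3y read 0 and 0 CPM in MOZ-TIF2 cells and 55.03 and 3.55 CPM in fresh cells, and Ddx3y 0 and 0 CPM in MOZ-TIF2 cells and 24.3 and 2.21 CPM in fresh cells. Of 4 Y-linked genes tested these 2 fell and none rose, while Kdm5d, at 2.403 and 3.38 CPM in MOZ-TIF2 cells and 15.8 and 5.704 CPM in fresh cells, and Uty, at 0.191 and 0.467 CPM in MOZ-TIF2 cells and 10.5 and 1.11 CPM in fresh cells, did not pass (edgeR adjusted p = 0.063 and 0.051). Their summed level was 2.594 and 3.85 CPM in MOZ-TIF2 cells and 105.6 and 12.57 CPM in fresh cells, so fresh replicate 1 stood apart, and the part of this in the results was not tested. Kit, the receptor that defines the sorted fraction, read 40.97 and 28.97 CPM in MOZ-TIF2 cells and 138 and 181 CPM in fresh cells, and Cd34, a progenitor surface glycoprotein, 4.97 and 2.98 CPM in MOZ-TIF2 cells and 137 and 121 CPM in fresh cells. Both fell in MOZ-TIF2 cells (-2.19 and -5.02 on the log2 scale, edgeR adjusted p = 0.008 and 0.004) but were present in every library.

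Marker RNA of late neutrophils, erythroid cells, macrophages and B cells was plentiful in the fresh libraries. Late neutrophil markers summed to 977 and 4973 CPM in MOZ-TIF2 cells, against 20669 and 19186 CPM in fresh cells. Erythroid markers summed to 0.382 and 0.467 CPM in MOZ-TIF2 cells, against 5241 and 2059 CPM in fresh cells. Macrophage markers stood at 7.21 and 26.6 CPM in MOZ-TIF2 cells, against 1003 and 830 CPM in fresh cells. B cell markers stood at 5.27 and 5.13 CPM in MOZ-TIF2 cells, against 464 and 410 CPM in fresh cells. Whether the erythroid and B cell RNA came from mature cells or from precursors was not tested. Other sets were small in fresh cells, with T and NK cells at 16.2 and 14.1 CPM and dendritic cells at 18.3 and 14.1 CPM. Endothelium and stroma stood there at 27.7 and 21.6 CPM, and mast cells at 39.5 and 36.2 CPM. Granulocyte progenitor markers overlapped between the groups, with 15396 and 8989 CPM in MOZ-TIF2 cells and 6653 and 9184 CPM in fresh cells. The fresh cells were a mixture, and in bulk RNA fewer cells of a type and less RNA per cell cannot be told apart.

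**Figure D1:**
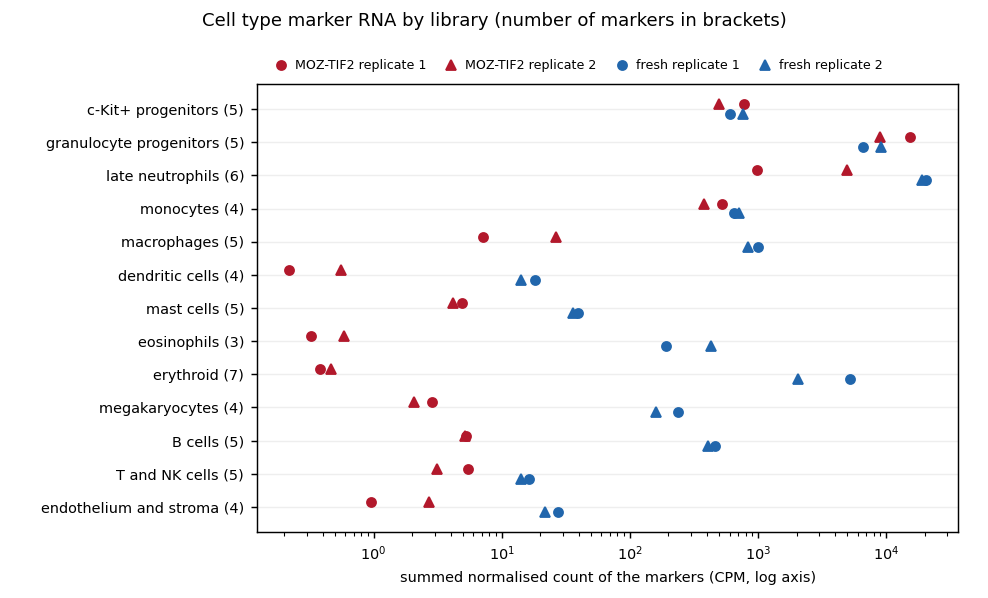
Summed normalised counts (CPM, log axis) of 13 marker sets in the 4 libraries, with MOZ-TIF2 in red above fresh in blue and one point a library. The granulocyte progenitor sums lie between 6653 and 15396 in all 4 libraries, while the erythroid sums are below 1 in MOZ-TIF2 cells and above 2000 in fresh cells.

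At an edgeR adjusted p under 0.05, 1718 of 15224 tested genes (11.3%) rose in MOZ-TIF2 cells and 1884 (12.4%) fell, 23.7% in all. The 2 directions differed in size. The called-higher genes had a median log2 difference of 1.64, and 94 were over 5, whereas the called-lower genes had a median of -3.86, and 630 were beyond -5 (genes without counts in a group taken at their bound). Genes called higher made up 21.2% of all CPM in MOZ-TIF2 cells and 6.7% in fresh cells, and genes called lower 2.51% in MOZ-TIF2 cells and 10.3% in fresh cells. Immunoglobulin genes made up 81 of the lower calls. Counts of the gene lists below are to be read against 11.3% higher and 12.4% lower among all genes, and some lists lie near these shares. Without any overlap of the 4 libraries, 34.6% of tested genes were higher and 36.3% lower. Calls rested on having both fresh libraries: without fresh replicate 1 there were 82 higher (0.507%) and 292 lower (1.81%), and without fresh replicate 2 there were 132 (0.816%) and 319 (1.97%), with the lone library assumed to vary like the others. Without MOZ-TIF2 replicate 1 there were 1655 and 1526, and without MOZ-TIF2 replicate 2 there were 1058 and 1455. Differentiated cells against the same fresh libraries had 21% of genes higher and 19.7% lower.

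**Figure D2:**
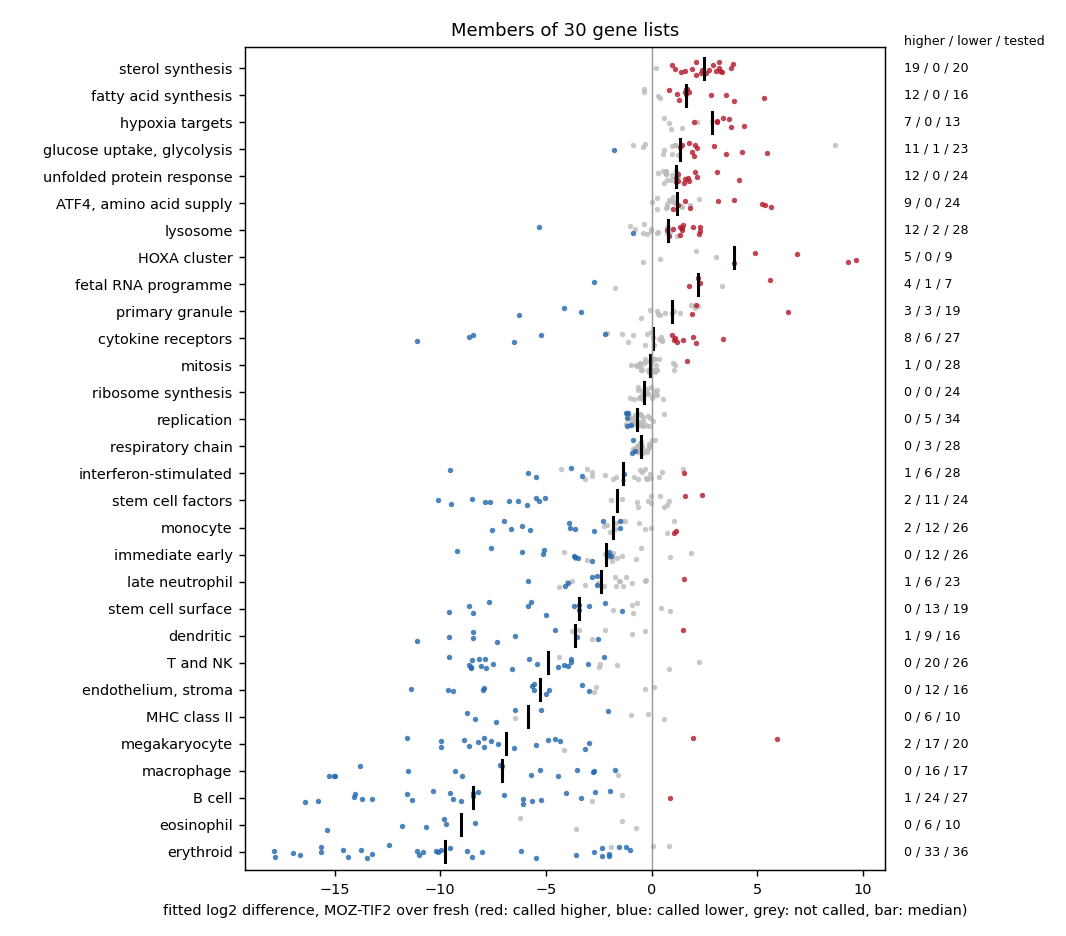
Fitted log2 difference of MOZ-TIF2 over fresh cells for the tested members of 30 gene lists, one point a gene, coloured by call, with the list median as a bar and the calls printed at the right. Values of genes without counts in one group depend on the prior count of the fit. The sterol synthesis points lie right of 0 with 19 of 20 called, and the erythroid points lie mostly left with 33 of 36 called.

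Homeobox genes of the HOXA cluster, and Six4, were high in MOZ-TIF2 cells, while some genes of the EYA family were without counts there. Six4 read 80.5 and 45.5 CPM in MOZ-TIF2 cells and 0.147 and 0.0582 CPM in fresh cells (ratio of MOZ-TIF2 to fresh 651, 95% counting interval 223 to 3160). Both MOZ-TIF2 libraries lay far above both fresh libraries. Of the 9 HOXA genes tested, 5 rose and none fell (55.6%, against 11.3% of all genes tested), with a median log2 difference of 3.92. Hoxa9 read 224 and 226 CPM in MOZ-TIF2 cells and 18.4 and 11.3 CPM in fresh cells, and Hoxa10 219.5 and 106 CPM in MOZ-TIF2 cells and 1.55 and 1.22 CPM in fresh cells. Both genes were higher in each MOZ-TIF2 library than in either fresh library. Hoxa11 stood at 42.4 and 6.01 CPM in MOZ-TIF2 cells and 0.0738 and 0 CPM in fresh cells (ratio of MOZ-TIF2 to fresh 762, 95% counting interval 137 to 30100), with MOZ-TIF2 replicate 1 well above replicate 2. Hoxa6 read 3.33 and 0.817 CPM in MOZ-TIF2 cells and 0.0738 and 0.0582 CPM in fresh cells (ratio of MOZ-TIF2 to fresh 32.5, 95% counting interval 8.85 to 271). Hoxa7 did not pass, at 21.9 and 6.505 CPM in MOZ-TIF2 cells and 13.1 and 8.32 CPM in fresh cells (edgeR adjusted p = 0.68), nor did Hoxa5, at 11.03 and 4.58 CPM in MOZ-TIF2 cells and 2.29 and 1.397 CPM in fresh cells (edgeR adjusted p = 0.082). Only 3 of 22 listed HOXB, HOXC and HOXD genes had enough counts to be tested, and of these Hoxb2 fell, from a low level, and none rose.

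The TALE homeobox genes, which encode DNA-binding partners of HOXA proteins, had 1 rise and 1 fall among 9. Meis1 rose, at 111 and 66.8 CPM in MOZ-TIF2 cells and 21.5 and 12.5 CPM in fresh cells (log2 difference 2.39, SE 0.37, edgeR adjusted p = 0.01). Both MOZ-TIF2 libraries were above both fresh libraries. Pbx3, which is often co-expressed with Meis1 in leukaemia, read 2.704 and 1.93 CPM in MOZ-TIF2 cells and 5.09 and 5.88 CPM in fresh cells and did not pass (edgeR adjusted p = 0.053). Among the EYA genes, Eya2 was without counts in MOZ-TIF2 cells, against 6.79 and 3.84 CPM in fresh cells, at least 121-fold lower, and Eya4 was likewise without counts, against 0.295 and 1.22 CPM in fresh cells. Eya3 read 71.9 and 82.8 CPM in MOZ-TIF2 cells and 51.04 and 59.8 CPM in fresh cells and did not pass (edgeR adjusted p = 0.12). Dach1 did not overlap between groups, at 58.1 and 96.3 CPM in MOZ-TIF2 cells and 19.6 and 33.4 CPM in fresh cells, but missed the threshold (log2 difference 1.54, SE 0.45, edgeR adjusted p = 0.055). Six5 fell at a low level, with 1.12 and 0.788 CPM in MOZ-TIF2 cells and 5.901 and 3.899 CPM in fresh cells. Of the 13 genes of the retinal network listed, 9 were tested, 2 rose and 3 fell.

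The Six4 start carried an interval in the lists of both Ty1 binding replicates, at chr12:73110952-73113401 and chr12:73110552-73113401. Whether replicate 2 used the Ty1 antibody is unsure, since its label has a catalogue number given elsewhere for acetylated histone. The 2 intervals may therefore not be 2 readings of the tag. The 250 bases before the Six4 start (RefSeq, GRCm38.p6, chr12:73113246-73113495, minus strand) are shown because they hold the edge of both intervals, and the 156 capitals are the bases inside them.
Six4: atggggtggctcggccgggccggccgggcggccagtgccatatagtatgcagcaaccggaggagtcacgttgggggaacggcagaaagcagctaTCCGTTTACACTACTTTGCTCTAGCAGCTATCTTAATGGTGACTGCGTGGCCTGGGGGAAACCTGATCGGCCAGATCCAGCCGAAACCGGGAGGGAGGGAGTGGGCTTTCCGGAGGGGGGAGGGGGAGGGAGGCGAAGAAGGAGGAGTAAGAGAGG
The capitals run up to the gene start, so the intervals cover the start side of the window and end within it.

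**Figure D3:**
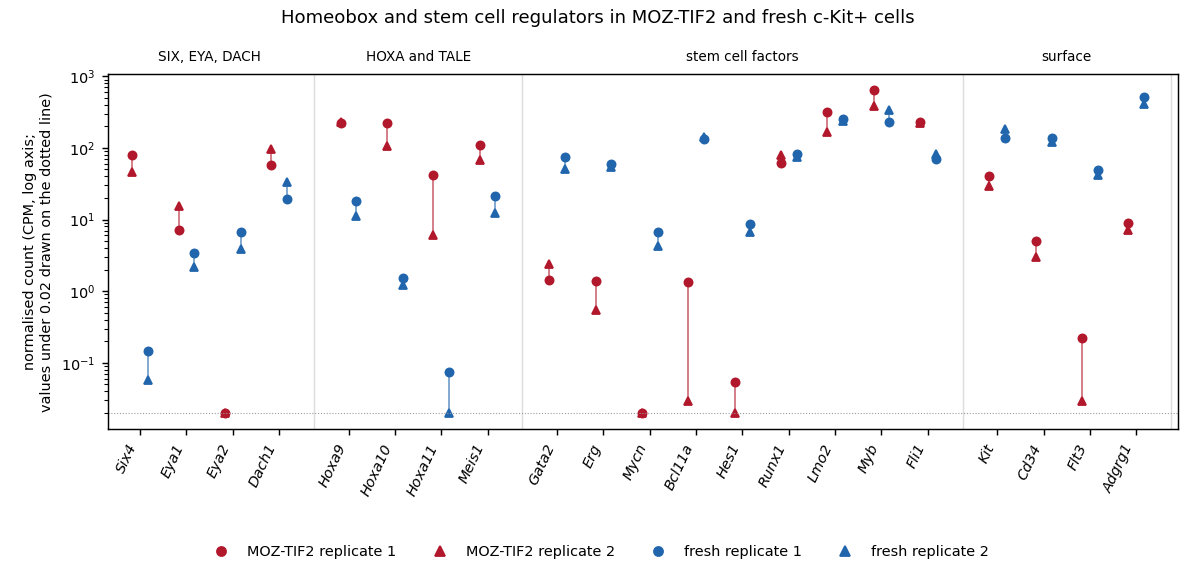
Normalised counts (CPM, log axis) of homeobox genes, stem cell factors and surface genes in MOZ-TIF2 (red, left) and fresh (blue, right) libraries, with replicate 1 as circles and replicate 2 as triangles joined by a line. Six4 and Hoxa10 stand far above fresh cells, Erg and Gata2 far below, and Runx1 and Lmo2 overlap.

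More stem cell transcription factors fell than rose. Of 24 tested, 2 rose and 11 fell, with a median log2 difference of -1.64, and without fresh replicates 1 and 2 in turn 7 fell each time. Gata2, a zinc finger factor of stem and mast cells, read 1.42 and 2.36 CPM in MOZ-TIF2 cells and 73.6 and 51.2 CPM in fresh cells (log2 difference -5.04, SE 0.39, edgeR adjusted p = 0.0015). Erg, an ETS factor of stem cells, read 1.36 and 0.554 CPM in MOZ-TIF2 cells and 59.97 and 53.95 CPM in fresh cells (log2 difference -5.88, SE 0.46, edgeR adjusted p = 0.0016), whereas its relative Fli1 rose, at 233 and 219.5 CPM in MOZ-TIF2 cells and 68.97 and 81.7 CPM in fresh cells (log2 difference 1.59, SE 0.21, edgeR adjusted p = 0.0062). The groups did not overlap for any of these 3 genes. Bcl11a, which lymphoid progenitors need, read 1.34 and 0.0292 CPM in MOZ-TIF2 cells and 133 and 143 CPM in fresh cells, and the 2 MOZ-TIF2 libraries were far apart at that low level. Gfi1b, a repressor of the erythroid and platelet lineages, read 0.109 and 0.7 CPM in MOZ-TIF2 cells and 159 and 137 CPM in fresh cells, and Zfpm1, the GATA cofactor FOG1, 4.32 and 9.63 CPM in MOZ-TIF2 cells and 360.3 and 261 CPM in fresh cells. Mycn and Ikzf2 had no counts in MOZ-TIF2 cells, at least 128-fold and 84-fold lower than in fresh cells. Other members differed less than the threshold asks. Runx1 read 61.4 and 78.6 CPM in MOZ-TIF2 cells and 81.4 and 74.8 CPM in fresh cells, Lmo2 320.5 and 165 CPM in MOZ-TIF2 cells and 256 and 240.0 CPM in fresh cells, and Myb 633 and 385 CPM in MOZ-TIF2 cells and 226 and 343 CPM in fresh cells.

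No gene of 19 tested stem and progenitor surface proteins rose, and 13 fell (68.4%, against 12.4% of all genes), with a median of -3.45. Adgrg1, an adhesion receptor of stem cells also known as GPR56, read 8.98 and 7.06 CPM in MOZ-TIF2 cells and 511 and 410.2 CPM in fresh cells (log2 difference -5.84, SE 0.36, edgeR adjusted p = 0.00094). Eng, a TGF-beta co-receptor, read 11.6 and 14.1 CPM in MOZ-TIF2 cells and 144 and 136 CPM in fresh cells, and the tetraspanin Cd9 13.1 and 19.98 CPM in MOZ-TIF2 cells and 134 and 120.2 CPM in fresh cells. Flt3, the receptor of lymphoid and dendritic progenitors, was close to absent at 0.218 and 0.0292 CPM in MOZ-TIF2 cells and 48.8 and 42.5 CPM in fresh cells. Cd93 and Itga6 lay the other way without passing. Cd93, a C1q-like receptor, read 197 and 281 CPM in MOZ-TIF2 cells and 102 and 159 CPM in fresh cells (edgeR adjusted p = 0.094), and the integrin chain Itga6 33.8 and 38.4 CPM in MOZ-TIF2 cells and 23.97 and 29.9 CPM in fresh cells (edgeR adjusted p = 0.18).

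Of 7 genes of fetal blood formation 4 rose and 1 fell. Igf2bp3, which binds and stabilises mRNA, read 188 and 159.6 CPM in MOZ-TIF2 cells and 2.06 and 5.005 CPM in fresh cells (log2 difference 5.60, SE 0.91, edgeR adjusted p = 0.011). Lin28a, a blocker of let-7 maturation, read 36.5 and 71.1 CPM in MOZ-TIF2 cells and 13.1 and 18.3 CPM in fresh cells, and Arid3a, a DNA-binding protein of fetal B cells, 197 and 320.1 CPM in MOZ-TIF2 cells and 46.5 and 58.9 CPM in fresh cells. Hmga1 read 2065 and 1748 CPM in MOZ-TIF2 cells and 368 and 460.3 CPM in fresh cells, but its near-identical copy Hmga1b read 34.7 and 551 CPM in MOZ-TIF2 cells and 130.3 and 20.2 CPM in fresh cells, so how reads were shared between the copies is uncertain. Hmga2 fell, at 0.273 and 0.846 CPM in MOZ-TIF2 cells and 4.43 and 2.91 CPM in fresh cells. The starts of Igf2bp3 and Hmga1 carried intervals in the lists of both Ty1 binding replicates, with the same doubt about the antibody of replicate 2. In the homeobox, stem cell and fetal groups, of the 26 called genes named, 10 were still called without fresh replicate 1 and 11 without fresh replicate 2, and Six4, Gata2, Erg, Gfi1b, Zfpm1, Mycn, Ikzf2, Adgrg1, Eng and Cd9 were called without each in turn. Hoxa10, Hoxa11, Hoxa6, Eya4 and Hmga2 were not called without MOZ-TIF2 replicate 1. Eya4 and Lin28a were not called without MOZ-TIF2 replicate 2.

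Erythroid RNA was nearly gone from MOZ-TIF2 cells. Of 36 genes tested none rose and 33 fell (91.7%), with a median log2 difference of -9.75, and 25 and 28 fell without fresh replicates 1 and 2.  Gata1, the master regulator of the lineage, read 0.0819 and 0.233 CPM in MOZ-TIF2 cells and 164 and 157 CPM in fresh cells, and Klf1, which drives globin genes, 0.246 and 0.117 CPM in MOZ-TIF2 cells and 215 and 199 CPM in fresh cells (log2 difference -10.11, SE 0.41, edgeR adjusted p = 0.00059). Both factors were near 0 in both MOZ-TIF2 libraries and alike in the fresh libraries. The receptor gene Epor stood at 0 and 0.0583 CPM in MOZ-TIF2 cells and 70.96 and 74.9 CPM in fresh cells (ratio of MOZ-TIF2 to fresh 0.000386, 95% counting interval 4.67e-05 to 0.00139). Transferrin receptor Tfrc did not pass, at 424 and 328 CPM in MOZ-TIF2 cells and 182 and 238 CPM in fresh cells (edgeR adjusted p = 0.14), and the mitochondrial iron importer Slc25a37 read 69.1 and 104 CPM in MOZ-TIF2 cells and 89.4 and 73.7 CPM in fresh cells (edgeR adjusted p = 0.84). All 8 haem synthesis genes fell. The erythroid first enzyme Alas2 had no counts in MOZ-TIF2 cells, against 85.3 and 27.9 CPM in fresh cells, at least 1260-fold lower, while enzymes that every cell needs fell less. Among these, Alad read 11.6 and 14.8 CPM in MOZ-TIF2 cells and 164 and 156 CPM in fresh cells (log2 difference -3.60, SE 0.24, edgeR adjusted p = 0.0011), and Fech 65.03 and 53.9 CPM in MOZ-TIF2 cells and 170.1 and 170.2 CPM in fresh cells (log2 difference -1.52). The globin genes Hbb-bs and Hba-a1 were at 0 in both MOZ-TIF2 libraries, and at 1791 and 556 CPM and 747 and 276 CPM in fresh cells. Fresh replicate 1 held more globin RNA than fresh replicate 2, and near-identical globin copies make the split between genes uncertain. Membrane skeleton genes fell too, with Ank1, which anchors spectrin, at 0.109 and 0.0292 CPM in MOZ-TIF2 cells and 151 and 159.8 CPM in fresh cells (log2 difference -11.01, SE 0.49, edgeR adjusted p = 0.0006) and the spectrin gene Sptb at 0.137 and 0.175 CPM in MOZ-TIF2 cells and 215 and 163 CPM in fresh cells. The empty-vector cells shared the same fresh libraries and had 32 of 36 of these genes lower (19.7% of all genes were), but kept Gata1 at 143 and 174 CPM. Of the 10 called genes named, 7 were still called without fresh replicate 1 and 9 without fresh replicate 2, and Gata1, Klf1, Epor, Alad, Hba-a1, Ank1 and Sptb were called without each in turn. Leaving out either MOZ-TIF2 library lost none of these calls.

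GATA factors bind the letters AGATAA, and these were sought on both strands in the 250 bases before each start (RefSeq, GRCm38.p6), a choice made after values were seen and after other letters had been tried. Of 25 listed erythroid genes with such a window 8 held the letters (32%), as did 3 of 15 megakaryocyte genes (20%), against 7.9% of tested genes with a window and 9.99% of all 32851 windows. The windows of Epor (chr9:21963577-21963826, minus strand) and Alas2 (chrX:150547167-150547416, plus strand) are shown because these genes fell close to 0, with the match in capitals.
Epor: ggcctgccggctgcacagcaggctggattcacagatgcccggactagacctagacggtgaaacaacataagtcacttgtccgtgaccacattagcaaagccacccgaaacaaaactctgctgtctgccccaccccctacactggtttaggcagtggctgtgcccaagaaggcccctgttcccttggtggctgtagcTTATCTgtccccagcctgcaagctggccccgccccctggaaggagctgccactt
Alas2: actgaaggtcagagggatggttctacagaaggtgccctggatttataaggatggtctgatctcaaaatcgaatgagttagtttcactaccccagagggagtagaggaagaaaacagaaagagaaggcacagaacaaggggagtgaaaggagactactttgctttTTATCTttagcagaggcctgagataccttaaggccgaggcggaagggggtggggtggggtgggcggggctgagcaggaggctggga
Both matches read TTATCT, the reverse strand of the letters, at 54 bases before the Epor start and 86 before the Alas2 start. A match describes these letters and is not a measured binding site.

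Genes of other lineages fell as well. Of 20 megakaryocyte genes 17 fell and 2 rose, with a median of -6.89. Rab27b, a GTPase of platelet granules, read 0.0819 and 0 CPM in MOZ-TIF2 cells and 14.5 and 13.4 CPM in fresh cells, and the thrombin receptor F2r 0.655 and 1.02 CPM in MOZ-TIF2 cells and 42.04 and 33.7 CPM in fresh cells (log2 difference -5.49, SE 0.35, edgeR adjusted p = 0.00095). Thbs1 and P2rx1 went the other way. Thbs1, the matrix protein thrombospondin of platelet granules and of many other cells, read 443 and 3399 CPM in MOZ-TIF2 cells and 33.2 and 28.9 CPM in fresh cells (log2 difference 5.95, SE 1.01, edgeR adjusted p = 0.012). P2rx1, an ATP-gated channel, read 55.3 and 60.9 CPM in MOZ-TIF2 cells and 15.1 and 15.2 CPM in fresh cells (log2 difference 1.94, SE 0.21, edgeR adjusted p = 0.0037). For Thbs1, MOZ-TIF2 replicate 2 was far above replicate 1, and both were above fresh cells.

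Of 27 B cell genes 24 fell and 1 rose, with a median of -8.22 with genes at 0 taken at their bound, and 16 fell without each fresh library in turn. In empty-vector cells against the same fresh libraries 22 were lower and 1 higher. The B lineage factors Ebf1 and Pax5 had no counts in MOZ-TIF2 cells, against 84.4 and 82.7 CPM and 65.9 and 66.1 CPM in fresh cells, at least 1970-fold and 1560-fold lower. Dntt, the polymerase that adds bases to receptor joints, was also without counts, against 287 and 267 CPM in fresh cells. The heavy chain gene Ighm was not lost, at 111 and 74.6 CPM in MOZ-TIF2 cells and 1123 and 726 CPM in fresh cells (log2 difference -3.32, SE 0.35, edgeR adjusted p = 0.0034), and Tcf3, the E protein E2A that myeloid cells also use, read 76.0 and 72.4 CPM in MOZ-TIF2 cells and 296 and 288 CPM in fresh cells. Btk, a kinase that myeloid cells share with B cells, was the member that rose, at 186 and 169 CPM in MOZ-TIF2 cells and 93.6 and 97.8 CPM in fresh cells (log2 difference 0.89, SE 0.19, edgeR adjusted p = 0.024). Of 26 T and NK cell genes 20 fell and none rose, and Cd4, a T cell co-receptor that dendritic cells of the mouse also express, read 0 and 0.0292 CPM in MOZ-TIF2 cells and 15.5 and 14.4 CPM in fresh cells (ratio of MOZ-TIF2 to fresh 0.000949, 95% counting interval 2.4e-05 to 0.00531).

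Marrow macrophage genes fell for 16 of 17, median -7.06. Besides the C1q genes, which had no counts in MOZ-TIF2 cells, the scavenger receptor Cd163 had none, against 65.3 and 76.1 CPM in fresh cells, at least 1690-fold lower. Vcam1, an adhesion molecule of macrophages and stroma, read 1.26 and 0.117 CPM in MOZ-TIF2 cells and 340.0 and 353 CPM in fresh cells (log2 difference -8.96, SE 0.99, edgeR adjusted p = 0.0037), and Apoe, a lipid carrier, 2.79 and 3.35 CPM in MOZ-TIF2 cells and 573 and 305 CPM in fresh cells (log2 difference -7.16, SE 0.78, edgeR adjusted p = 0.0036). Adgre1, the F4/80 antigen, did not pass, at 5.95 and 26.5 CPM in MOZ-TIF2 cells and 47.1 and 49.4 CPM in fresh cells (edgeR adjusted p = 0.13). Of 16 dendritic cell genes 9 fell and 1 rose, of 10 eosinophil genes 6 fell, and of 23 mast cell and basophil genes 8 fell and 1 rose. Siglech, a receptor of plasmacytoid dendritic cells, had no counts in MOZ-TIF2 cells, against 12.1 and 9.95 CPM in fresh cells. Epx, the eosinophil peroxidase, read 0.0273 and 0.0875 CPM in MOZ-TIF2 cells and 44.9 and 153 CPM in fresh cells and the histamine enzyme Hdc 7.57 and 3.996 CPM in MOZ-TIF2 cells and 82.98 and 97.4 CPM in fresh cells (log2 difference -3.96, SE 0.36, edgeR adjusted p = 0.0022). The mast cell protease Cma1, which the empty-vector cells held at 16497 and 18052 CPM, stood at 0.109 and 0.758 CPM in MOZ-TIF2 cells and 0.369 and 0.407 CPM in fresh cells and did not pass (edgeR adjusted p = 0.92). Of 16 endothelial and stromal genes 12 fell and none rose, and empty-vector cells against fresh cells had 14 lower and 1 higher. The stromal chemokine gene Cxcl12 read 0 and 0.0583 CPM in MOZ-TIF2 cells and 139 and 38.2 CPM in fresh cells (ratio of MOZ-TIF2 to fresh 0.000341, 95% counting interval 4.12e-05 to 0.00123), with fresh replicate 1 well above replicate 2. For the lineages outside the erythroid, of the 18 called genes named, 14 were still called without fresh replicate 1 and 13 without fresh replicate 2, and Rab27b, F2r, Ebf1, Pax5, Dntt, Ighm, Tcf3, Cd4, Cd163, Vcam1, Apoe, Hdc and Cxcl12 were called without each in turn. Btk was not called without MOZ-TIF2 replicate 1.

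Most granulocyte genes of either stage did not pass, 13 of 19 early genes and 16 of 23 late genes. Among called genes, those of the primary granule, which is made at the promyelocyte stage, went both ways. Called genes of later stages fell more often than they rose. Of 19 primary granule and promyelocyte genes 3 rose and 3 fell, median 0.96. Mpo, myeloperoxidase, read 7557 and 5360 CPM in MOZ-TIF2 cells and 4510 and 6180 CPM in fresh cells, and Elane, neutrophil elastase, 1861 and 871 CPM in MOZ-TIF2 cells and 886 and 1348 CPM in fresh cells, and both overlapped between the groups. Prtn3, proteinase 3, read 2141 and 1258 CPM in MOZ-TIF2 cells and 733 and 979 CPM in fresh cells and Ctsg, cathepsin G, 2753 and 1018 CPM in MOZ-TIF2 cells and 369 and 455 CPM in fresh cells. Neither passed, although the libraries did not overlap (edgeR adjusted p = 0.63 and 0.053). The empty-vector libraries, which share the spread estimate, were far apart for Prtn3, at 0.478 and 36.1 CPM. With the 4 libraries of the comparison alone, Prtn3 gave an edgeR adjusted p of 0.079 and Ctsg of 0.032, and the list 4 higher and 3 lower. Igsf6, an immunoglobulin-like surface protein, rose, at 566 and 556 CPM in MOZ-TIF2 cells and 118 and 143 CPM in fresh cells (log2 difference 2.10, SE 0.46, edgeR adjusted p = 0.025). Fcnb, a ficolin of late myelocytes and monocytes that was grouped here with the primary granule genes, fell, at 3.03 and 2.27 CPM in MOZ-TIF2 cells and 185 and 227 CPM in fresh cells (log2 difference -6.27, SE 0.56, edgeR adjusted p = 0.0022). Of 23 secondary granule and late neutrophil genes 6 fell (10 by DESeq2) and 1 rose, median -2.41, and 19 of 23 were lower without overlap, against 36.3% of all genes. Empty-vector cells against the same fresh libraries had 17 of the 23 lower and none higher. Camp, the cathelicidin, read 9.45 and 44.9 CPM in MOZ-TIF2 cells and 1637 and 1486 CPM in fresh cells (log2 difference -5.85, SE 1.45, edgeR adjusted p = 0.035). Ltf, lactoferrin, read 26.1 and 391 CPM in MOZ-TIF2 cells and 3026 and 2702 CPM in fresh cells and did not pass (edgeR adjusted p = 0.12). The alarmin S100a8 fell, at 312 and 983 CPM in MOZ-TIF2 cells and 3992 and 3748 CPM in fresh cells, as did Wfdc21, at 17.2 and 12.1 CPM in MOZ-TIF2 cells and 90.1 and 86.4 CPM in fresh cells (log2 difference -2.59, SE 0.24, edgeR adjusted p = 0.0024). MOZ-TIF2 replicate 2 was above replicate 1 for Camp, Ltf and S100a8, most of all for Ltf, and both stayed below fresh cells. Padi4, which citrullinates histones in neutrophils, rose, at 75.4 and 173 CPM in MOZ-TIF2 cells and 40.9 and 44.1 CPM in fresh cells (log2 difference 1.55, SE 0.39, edgeR adjusted p = 0.036).

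Of 11 transcription factors of these cells 2 rose and 2 fell (18.2% each way, against 11.3% and 12.4% of all genes). Gfi1, a repressor that favours granulocytes, read 379 and 322 CPM in MOZ-TIF2 cells and 27.2 and 34.6 CPM in fresh cells (log2 difference 3.50, SE 0.39, edgeR adjusted p = 0.0037), and Cebpb, which acts when granulocytes are needed fast, 144 and 270.1 CPM in MOZ-TIF2 cells and 50.01 and 34.1 CPM in fresh cells (log2 difference 2.30, SE 0.38, edgeR adjusted p = 0.011). Both rose without overlap of the groups. Cebpa read 104 and 61.7 CPM in MOZ-TIF2 cells and 41.3 and 48.7 CPM in fresh cells and did not pass (edgeR adjusted p = 0.085), and Spi1, encoding PU.1, read 223 and 240.1 CPM in MOZ-TIF2 cells and 149.8 and 133 CPM in fresh cells (edgeR adjusted p = 0.061). Irf8, which favours monocytes and dendritic cells, fell, at 6.199 and 14.3 CPM in MOZ-TIF2 cells and 151 and 144 CPM in fresh cells (log2 difference -3.84, SE 0.54, edgeR adjusted p = 0.0078). Klf4, a monocyte factor, read 0.137 and 0.408 CPM in MOZ-TIF2 cells and 26.9 and 12.3 CPM in fresh cells. Of 26 monocyte genes 12 fell and 2 rose, median -1.84. Csf1r, the receptor of the macrophage growth factor, read 5.87 and 34.9 CPM in MOZ-TIF2 cells and 85.8 and 89.5 CPM in fresh cells and did not pass (edgeR adjusted p = 0.087). Cx3cr1 fell, at 0.3 and 0.0875 CPM in MOZ-TIF2 cells and 11.9 and 9.603 CPM in fresh cells, while the IgG receptor Fcgr3 rose, at 178 and 171 CPM in MOZ-TIF2 cells and 75.8 and 91.02 CPM in fresh cells (log2 difference 1.06, SE 0.24, edgeR adjusted p = 0.027). In these 2 groups of myeloid genes, of the 12 called genes named, 3 were still called without fresh replicate 1 and 4 without fresh replicate 2, and Fcnb, Wfdc21 and Cx3cr1 were called without each in turn. Camp and Fcgr3 were not called without MOZ-TIF2 replicate 1. Igsf6, Padi4 and Fcgr3 were not called without MOZ-TIF2 replicate 2.

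**Figure D4:**
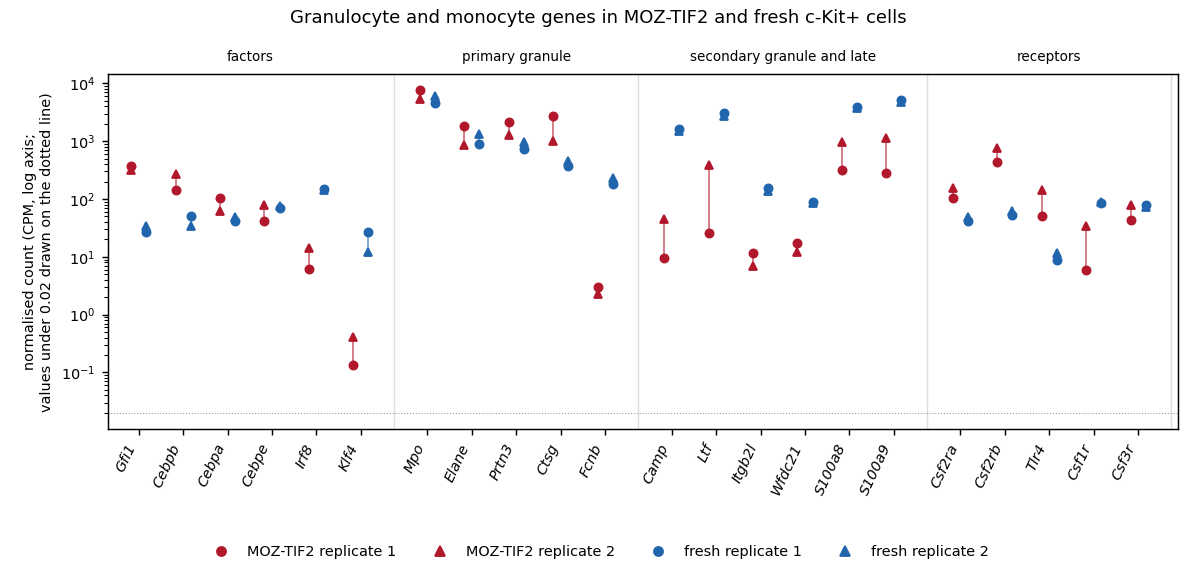
Normalised counts (CPM, log axis) of myeloid factors, granule genes and receptors in MOZ-TIF2 (red, left) and fresh (blue, right) libraries, circles for replicate 1 and triangles for replicate 2. Gfi1, Cebpb and Csf2rb lie above fresh cells, Mpo and Elane overlap, and Ltf and S100a9 lie below with MOZ-TIF2 replicate 2 over replicate 1.

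Of 27 cytokine receptor chains 8 rose and 6 fell (29.6% and 22.2%, against 11.3% and 12.4% of all genes). Csf2rb, the signalling chain shared by the IL-3, GM-CSF and IL-5 receptors, read 433 and 779 CPM in MOZ-TIF2 cells and 53.3 and 62.3 CPM in fresh cells (log2 difference 3.39, SE 0.41, edgeR adjusted p = 0.0052), and Csf2ra, the GM-CSF binding chain, 104 and 152 CPM in MOZ-TIF2 cells and 40.9 and 49.8 CPM in fresh cells (log2 difference 1.50, SE 0.26, edgeR adjusted p = 0.013). In empty-vector cells Csf2rb read 6780 and 4827 CPM and was also called higher than in fresh cells. The tumour necrosis factor receptor Tnfrsf1a also rose, at 118 and 133 CPM in MOZ-TIF2 cells and 58.1 and 57.6 CPM in fresh cells, as did the insulin receptor Insr, at 46.2 and 121 CPM in MOZ-TIF2 cells and 17.04 and 25.96 CPM in fresh cells. Csf3r, the G-CSF receptor, read 42.7 and 79.4 CPM in MOZ-TIF2 cells and 79 and 72.2 CPM in fresh cells and did not pass (edgeR adjusted p = 0.49). Those that fell include Kit, Flt3, Epor, Il7r and Il1rl1, the last, the IL-33 receptor, at 0.164 and 0.35 CPM in MOZ-TIF2 cells and 22.4 and 24.6 CPM in fresh cells (log2 difference -6.50, SE 0.46, edgeR adjusted p = 0.0012). Toll-like receptor genes and their adaptors had 5 higher and 2 lower of 21 (23.8% and 9.52%). Tlr4, the endotoxin receptor, read 50.2 and 146 CPM in MOZ-TIF2 cells and 8.704 and 11.6 CPM in fresh cells (log2 difference 3.27, SE 0.53, edgeR adjusted p = 0.011). Irak4, a kinase of the same pathway, read 51.5 and 48.5 CPM in MOZ-TIF2 cells and 18 and 19.3 CPM in fresh cells (log2 difference 1.42, SE 0.19, edgeR adjusted p = 0.0068), and Myd88, the adaptor, 53.6 and 46.5 CPM in MOZ-TIF2 cells and 46.03 and 45.9 CPM in fresh cells (edgeR adjusted p = 0.65). Pim1, a kinase induced by STAT5, rose, at 349 and 1110 CPM in MOZ-TIF2 cells and 188 and 98.8 CPM in fresh cells (log2 difference 2.35). Empty-vector cells held it at 675 and 725 CPM, also called higher than fresh cells. With the 4 libraries of the comparison alone Pim1 missed the threshold (edgeR adjusted p = 0.0501). Its fellow STAT targets Socs2 and Cish did not pass, although Cish had a log2 difference of 3.17. Etv4, an ETS factor downstream of RAS and ERK, rose at a low level, at 9.48 and 2.07 CPM in MOZ-TIF2 cells and 0.221 and 0 CPM in fresh cells (ratio of MOZ-TIF2 to fresh 60.4, 95% counting interval 20.5 to 294).

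Antigen presentation, interferon and immediate early genes had more falls than rises. Of 10 MHC class II genes 6 fell, and the class II chaperone Cd74 read 1.86 and 3.82 CPM in MOZ-TIF2 cells and 319.8 and 187 CPM in fresh cells (log2 difference -6.48, SE 1.18, edgeR adjusted p = 0.015). MHC class I and peptide supply genes had none higher and 2 lower of 12 (16.7%, near the 12.4% of all genes), with B2m at 1010 and 959 CPM in MOZ-TIF2 cells and 1274 and 1196 CPM in fresh cells (edgeR adjusted p = 0.38). Interferon-stimulated genes had 6 lower and 1 higher of 28, median -1.34, with 11 lower by DESeq2. The core of the interferon response element lay in 9 of 19 of their windows (47.4%), against 3.49% of tested genes with a window. Of these 9 genes 2 were called lower and 1 higher. The genes were listed as interferon-stimulated, so this share describes the list and does not bear on the falls. Oasl1 read 0 and 0.0292 CPM in MOZ-TIF2 cells and 16.1 and 12.8 CPM in fresh cells (ratio of MOZ-TIF2 to fresh 0.00099, 95% counting interval 2.5e-05 to 0.00554) and Ifit2 7.57 and 9.01 CPM in MOZ-TIF2 cells and 16.4 and 25.2 CPM in fresh cells, while Stat2, a factor of the interferon response, rose, at 48.6 and 58.6 CPM in MOZ-TIF2 cells and 18.4 and 18.3 CPM in fresh cells (log2 difference 1.55, SE 0.39, edgeR adjusted p = 0.038). Of 26 immediate early genes 12 fell (46.2%, against 12.4% of all genes) and none rose. Without overlap 22 of the 26 were lower, against 36.3% of all genes. In empty-vector cells against fresh cells 12 of the 26 were called lower and 2 higher. Fos read 1.502 and 5.63 CPM in MOZ-TIF2 cells and 769 and 612 CPM in fresh cells and Fosb 0.0546 and 0.642 CPM in MOZ-TIF2 cells and 264 and 146 CPM in fresh cells, and Dusp1, a MAP kinase phosphatase, 1.48 and 10.3 CPM in MOZ-TIF2 cells and 229.8 and 181 CPM in fresh cells (log2 difference -5.13, SE 0.97, edgeR adjusted p = 0.017). Fresh replicate 1 was above replicate 2 for all 3, and both were far above MOZ-TIF2 cells. Egr1 read 1.31 and 56.2 CPM in MOZ-TIF2 cells and 715 and 287 CPM in fresh cells, with wide spread in both groups, and did not pass (edgeR adjusted p = 0.14). Within the receptor, sensing and early response genes, of the 16 called genes named, 2 were still called without fresh replicate 1 and 2 without fresh replicate 2, and Il1rl1 and Oasl1 were called without each in turn. Etv4, Cd74, Ifit2 and Stat2 were not called without MOZ-TIF2 replicate 1. Insr, Pim1, Ifit2 and Stat2 were not called without MOZ-TIF2 replicate 2.

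Replication genes were lower by a small amount in most cases, and few genes of the other cell cycle lists were called. Of 34 replication genes 5 fell and none rose, with a median of -0.70, and 28 were lower without overlap (36.3% of all genes were). The number that fell depended on the fit: it was 15 with the 4 libraries of the comparison alone and 13 by DESeq2, 3 without MOZ-TIF2 replicate 1, and 0 without MOZ-TIF2 replicate 2 and without either fresh replicate. Pcna, the polymerase clamp, read 282 and 193 CPM in MOZ-TIF2 cells and 546 and 533 CPM in fresh cells (log2 difference -1.18, SE 0.31, edgeR adjusted p = 0.042). Mcm2, a helicase subunit, did not pass, at 237 and 223 CPM in MOZ-TIF2 cells and 429.9 and 466 CPM in fresh cells (edgeR adjusted p = 0.11). Of 28 mitosis genes only Cenpe, a kinetochore motor, was called, at 106 and 143 CPM in MOZ-TIF2 cells and 42.3 and 35.7 CPM in fresh cells (log2 difference 1.67, SE 0.28, edgeR adjusted p = 0.012). Of 26 genes of the G1 phase 1 rose and 4 fell. Ccnd1, cyclin D1, read 0.41 and 0.263 CPM in MOZ-TIF2 cells and 22.6 and 20.1 CPM in fresh cells (log2 difference -5.96, SE 0.79, edgeR adjusted p = 0.0066) and Ccne1, cyclin E1, 24.8 and 22.4 CPM in MOZ-TIF2 cells and 87.6 and 99.8 CPM in fresh cells (log2 difference -1.99, SE 0.22, edgeR adjusted p = 0.0037). Cdkn1a, the p21 inhibitor, rose, at 60.2 and 168 CPM in MOZ-TIF2 cells and 20.6 and 12.8 CPM in fresh cells (log2 difference 2.77, SE 0.58, edgeR adjusted p = 0.022), and Cdkn2c, the p18 inhibitor, fell, at 0.601 and 3.56 CPM in MOZ-TIF2 cells and 44.3 and 53.02 CPM in fresh cells (log2 difference -4.55, SE 0.86, edgeR adjusted p = 0.017). Of 20 p53 targets 7 rose and 3 fell, and empty-vector cells against fresh cells had 13 higher and 1 lower. Pmaip1, encoding NOXA, read 44.05 and 92.3 CPM in MOZ-TIF2 cells and 2.88 and 2.27 CPM in fresh cells (log2 difference 4.73, SE 0.86, edgeR adjusted p = 0.015), Ccng1 201 and 144 CPM in MOZ-TIF2 cells and 70.7 and 92.6 CPM in fresh cells, and Mdm2 65.4 and 62.3 CPM in MOZ-TIF2 cells and 44.3 and 47.2 CPM in fresh cells without passing (edgeR adjusted p = 0.24). Trp53 itself fell slightly, at 151 and 136 CPM in MOZ-TIF2 cells and 283 and 254 CPM in fresh cells (log2 difference -0.90, SE 0.20, edgeR adjusted p = 0.026). Of 25 repair genes 5 fell, and Xrcc5, encoding the end-joining protein KU80, fell most, at 2.13 and 3.79 CPM in MOZ-TIF2 cells and 40.4 and 39.2 CPM in fresh cells (log2 difference -3.75, SE 0.44, edgeR adjusted p = 0.0045). Of 16 genes of the BCL2 family 3 rose and 1 fell. Bcl2, which blocks cell death, read 2.46 and 0.525 CPM in MOZ-TIF2 cells and 27.1 and 27.5 CPM in fresh cells (log2 difference -4.18, SE 0.65, edgeR adjusted p = 0.01), and Mcl1, a relative, 197 and 284 CPM in MOZ-TIF2 cells and 231 and 208 CPM in fresh cells without passing (edgeR adjusted p = 0.74).

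Chromatin regulators had 4 higher and 7 lower of 28 (14.3% and 25%, against 11.3% and 12.4% of all genes). The Polycomb methyltransferase Ezh2 read 74.6 and 84.1 CPM in MOZ-TIF2 cells and 175 and 179 CPM in fresh cells (log2 difference -1.16, SE 0.21, edgeR adjusted p = 0.015). Jarid2, a Polycomb cofactor, rose, at 73.9 and 100.1 CPM in MOZ-TIF2 cells and 29.1 and 39.4 CPM in fresh cells (log2 difference 1.34, SE 0.29, edgeR adjusted p = 0.025). The DNA dioxygenases went apart, with Tet2 at 33.4 and 54.2 CPM in MOZ-TIF2 cells and 5.83 and 6.23 CPM in fresh cells (log2 difference 2.86, SE 0.57, edgeR adjusted p = 0.02), Tet3 at 112 and 160.4 CPM in MOZ-TIF2 cells and 38.9 and 48.6 CPM in fresh cells (log2 difference 1.64, SE 0.31, edgeR adjusted p = 0.017) and Tet1 at 2.19 and 1.14 CPM in MOZ-TIF2 cells and 6.196 and 8.15 CPM in fresh cells (log2 difference -2.11, SE 0.50, edgeR adjusted p = 0.032). Of 13 genes of the MOZ complex, TIF2 and their partners 3 rose, Ncoa2 among them, and 1 fell. Ep300, encoding p300, read 107 and 189 CPM in MOZ-TIF2 cells and 44.9 and 56.05 CPM in fresh cells (log2 difference 1.55, SE 0.42, edgeR adjusted p = 0.044) and Ncoa3 61.8 and 119.6 CPM in MOZ-TIF2 cells and 26.3 and 30.3 CPM in fresh cells (log2 difference 1.68, SE 0.34, edgeR adjusted p = 0.021). Crebbp, encoding CBP, read 53.8 and 68.2 CPM in MOZ-TIF2 cells and 32.9 and 30.2 CPM in fresh cells and Brpf1, a scaffold of the MOZ complex, 73.2 and 91.01 CPM in MOZ-TIF2 cells and 47.95 and 51.1 CPM in fresh cells, and neither passed (edgeR adjusted p = 0.083 and 0.076). For the cell cycle, survival and chromatin genes, of the 18 called genes named, 2 were still called without fresh replicate 1 and 2 without fresh replicate 2, and Xrcc5 was called without each in turn. Ccng1 was not called without MOZ-TIF2 replicate 1. Pcna, Trp53, Jarid2, Tet2, Tet1 and Ep300 were not called without MOZ-TIF2 replicate 2.

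Genes that make lipids were higher in MOZ-TIF2 cells. Of 20 sterol synthesis enzymes 19 rose (95%, against 11.3% of all genes), with a median log2 difference of 2.49, and 8 and 9 were called without fresh replicates 1 and 2. Fdps, which makes farnesyl diphosphate, read 565 and 721 CPM in MOZ-TIF2 cells and 52.4 and 44.1 CPM in fresh cells (log2 difference 3.74, SE 0.31, edgeR adjusted p = 0.0018). Both MOZ-TIF2 libraries were far above both fresh libraries. Ebp, a sterol isomerase, was the member that did not pass, at 64.5 and 44.9 CPM in MOZ-TIF2 cells and 50.1 and 45.98 CPM in fresh cells (edgeR adjusted p = 0.64). The letters TCACNCCAC, a sterol regulatory element, lay in 1 of 15 windows of these enzymes (6.67%), against 1.19% of tested genes with a window. Of the 16 control genes 8 rose and 2 fell. Stard4, a sterol carrier, read 232 and 265 CPM in MOZ-TIF2 cells and 23.5 and 26.6 CPM in fresh cells (log2 difference 3.31, SE 0.22, edgeR adjusted p = 0.0011). Srebf2, the sterol transcription factor, read 357 and 452 CPM in MOZ-TIF2 cells and 142 and 124 CPM in fresh cells (log2 difference 1.60, SE 0.23, edgeR adjusted p = 0.0083), and Srebf1, its fatty acid counterpart, 135 and 174 CPM in MOZ-TIF2 cells and 108 and 98.7 CPM in fresh cells without passing (edgeR adjusted p = 0.11). The genes that fell were Nr1h3, the sterol sensor LXR alpha, at 0.819 and 0.933 CPM in MOZ-TIF2 cells and 10.6 and 7.04 CPM in fresh cells, and its target Abca1, a cholesterol exporter, at 1.39 and 2.74 CPM in MOZ-TIF2 cells and 16.6 and 22.6 CPM in fresh cells (log2 difference -3.25, SE 0.56, edgeR adjusted p = 0.013). Of 16 fatty acid synthesis genes 12 rose and none fell. Fasn, fatty acid synthase, read 970.0 and 1070 CPM in MOZ-TIF2 cells and 144 and 147 CPM in fresh cells (log2 difference 2.81, SE 0.23, edgeR adjusted p = 0.0017), and the desaturase gene Scd2 2098 and 2218 CPM in MOZ-TIF2 cells and 133 and 154 CPM in fresh cells (log2 difference 3.91, SE 0.30, edgeR adjusted p = 0.0015). Me1, malic enzyme, which supplies NADPH, stood at 17.4 and 6.56 CPM in MOZ-TIF2 cells and 0.295 and 0.291 CPM in fresh cells (log2 difference 5.33, SE 0.66, edgeR adjusted p = 0.0055). The empty-vector cells, set against the same fresh libraries, had 14 sterol genes higher and 1 lower, and 13 fatty acid genes higher and 1 lower, with Fasn at 422 and 412 CPM. Among all genes 21% were higher and 19.7% lower in that comparison. Of the 8 called genes named, 4 were still called without fresh replicate 1 and 4 without fresh replicate 2, and Fdps, Stard4, Fasn and Scd2 were called without each in turn. Leaving out either MOZ-TIF2 library lost none of these calls.

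Glucose uptake, glycolysis and hypoxia genes were higher. Of 23 glycolysis genes 11 rose and 1 fell, and of 13 hypoxia targets 7 rose and none fell, with medians of 1.33 and 2.87. Pfkp, a phosphofructokinase form, read 194 and 448 CPM in MOZ-TIF2 cells and 41.4 and 40.7 CPM in fresh cells (log2 difference 2.97, SE 0.43, edgeR adjusted p = 0.0085), while the muscle form Pfkm was the gene that fell, at 20.1 and 26.7 CPM in MOZ-TIF2 cells and 82.5 and 80.5 CPM in fresh cells (log2 difference -1.80, SE 0.22, edgeR adjusted p = 0.0051). Hk2, an inducible hexokinase, read 136 and 175 CPM in MOZ-TIF2 cells and 33.5 and 42.6 CPM in fresh cells (log2 difference 2.03, SE 0.26, edgeR adjusted p = 0.0061), and Slc16a3, the lactate exporter MCT4, 243 and 446 CPM in MOZ-TIF2 cells and 30.3 and 30.4 CPM in fresh cells (log2 difference 3.51, SE 0.45, edgeR adjusted p = 0.0061). Gapdh read 1772 and 1245 CPM in MOZ-TIF2 cells and 1086 and 969 CPM in fresh cells and did not pass (edgeR adjusted p = 0.32). Among hypoxia genes, Hif1a itself read 236 and 438 CPM in MOZ-TIF2 cells and 30.2 and 48.2 CPM in fresh cells (log2 difference 3.10, SE 0.40, edgeR adjusted p = 0.0062), Vegfa, a growth factor for vessels, 129 and 324 CPM in MOZ-TIF2 cells and 25.3 and 26.9 CPM in fresh cells (log2 difference 3.12, SE 0.47, edgeR adjusted p = 0.009), and the prolyl hydroxylase Egln3 94.5 and 316 CPM in MOZ-TIF2 cells and 22.5 and 17.4 CPM in fresh cells (log2 difference 3.36, SE 0.80, edgeR adjusted p = 0.031). Replicate 2 was the higher MOZ-TIF2 library for each of these 3, and the groups did not overlap. Ero1l, an oxidase of the endoplasmic reticulum (ER), read 843 and 1695 CPM in MOZ-TIF2 cells and 81.95 and 106 CPM in fresh cells (log2 difference 3.75, SE 0.42, edgeR adjusted p = 0.004). The letters ACGTG, the core of the hypoxia response element, lay in the 250-base windows of 9 of 11 hypoxia and 12 of 22 glycolysis genes (81.8% and 54.5%), against 24.4% of tested genes with a window and 16.6% of all windows. Of the members with the letters 6 of 9 and 7 of 12 were called higher, and 1 of the 12 lower. Of the 8 called genes named, 0 were still called without fresh replicate 1 and 0 without fresh replicate 2. Egln3 was not called without MOZ-TIF2 replicate 2.

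Genes of amino acid supply and of ER folding also rose. Of 24 genes of the ATF4 programme 9 rose and none fell, and 21 were higher without overlap, against 34.6% of all genes. Slc7a11, the cystine importer, read 66.9 and 79.1 CPM in MOZ-TIF2 cells and 1.62 and 1.86 CPM in fresh cells (log2 difference 5.38, SE 0.79, edgeR adjusted p = 0.0088). Gpt2, an alanine aminotransferase, read 38.7 and 149.6 CPM in MOZ-TIF2 cells and 2.43 and 2.62 CPM in fresh cells (log2 difference 5.22, SE 0.95, edgeR adjusted p = 0.015), and Trib3, a pseudokinase target of ATF4, 12.7 and 62.6 CPM in MOZ-TIF2 cells and 0.959 and 0.524 CPM in fresh cells (log2 difference 5.68, SE 0.95, edgeR adjusted p = 0.012). The 2 MOZ-TIF2 libraries were close for Slc7a11, and replicate 2 was well above replicate 1 for Gpt2 and Trib3. Atf4 read 426 and 509 CPM in MOZ-TIF2 cells and 262 and 208 CPM in fresh cells (log2 difference 0.99, SE 0.23, edgeR adjusted p = 0.03), and Ddit3, encoding CHOP, 9.07 and 16.7 CPM in MOZ-TIF2 cells and 13.1 and 8.497 CPM in fresh cells without passing (edgeR adjusted p = 0.77). Without either fresh library in turn no gene of this list was called. Of 24 unfolded protein response genes 12 rose and none fell, median 1.18. Edem1, which passes misfolded glycoproteins on for degradation, read 1588 and 1266 CPM in MOZ-TIF2 cells and 69.8 and 90.6 CPM in fresh cells (log2 difference 4.15, SE 0.29, edgeR adjusted p = 0.0012). The chaperone Hsp90b1 read 2641 and 1038 CPM in MOZ-TIF2 cells and 549.7 and 524 CPM in fresh cells (log2 difference 1.78, SE 0.48, edgeR adjusted p = 0.045), and Dnajc3, a co-chaperone, 326 and 193 CPM in MOZ-TIF2 cells and 100.5 and 114 CPM in fresh cells (log2 difference 1.27, SE 0.29, edgeR adjusted p = 0.029). Hspa5, encoding BiP, read 1714 and 762 CPM in MOZ-TIF2 cells and 548 and 496 CPM in fresh cells and did not pass (edgeR adjusted p = 0.08). Replicate 1 was the higher MOZ-TIF2 library for these chaperones, the reverse of the ATF4 targets. Of the 7 called genes named, 1 were still called without fresh replicate 1 and 1 without fresh replicate 2, and Edem1 was called without each in turn. Hsp90b1 and Dnajc3 were not called without MOZ-TIF2 replicate 1. Atf4 was not called without MOZ-TIF2 replicate 2.

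The letters TGATGNAA, the core bound by ATF4 with C/EBP proteins, lay in 5 of 22 windows of the amino acid list (22.7%), against 2.56% of tested genes with a window and 3.45% of all windows. The ER stress element (the letters CCAAT, then 9 bases of any kind, then CCACG) lay in 8 of 21 windows of the folding list (38.1%), against 0.16% of tested genes with a window and 0.113% of all windows. Of the members with the letters 2 of 5 and 2 of 8 were called higher. These and the other motifs were chosen after values were seen. Each was sought in genes listed for a related pathway or lineage, so a high share describes the list and not the comparison. Windows of the called members are shown, with matches on either strand in capitals.
Slc7a11: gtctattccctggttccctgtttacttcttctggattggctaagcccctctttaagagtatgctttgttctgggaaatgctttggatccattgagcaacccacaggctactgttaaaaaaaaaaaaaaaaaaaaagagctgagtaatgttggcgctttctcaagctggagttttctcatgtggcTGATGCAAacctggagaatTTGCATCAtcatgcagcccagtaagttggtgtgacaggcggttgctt
Chac1: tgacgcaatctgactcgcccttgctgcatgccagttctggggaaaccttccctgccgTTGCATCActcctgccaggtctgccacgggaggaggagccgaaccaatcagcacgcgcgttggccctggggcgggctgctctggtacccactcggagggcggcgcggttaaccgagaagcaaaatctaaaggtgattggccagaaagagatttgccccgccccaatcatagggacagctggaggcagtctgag
Hsp90b1: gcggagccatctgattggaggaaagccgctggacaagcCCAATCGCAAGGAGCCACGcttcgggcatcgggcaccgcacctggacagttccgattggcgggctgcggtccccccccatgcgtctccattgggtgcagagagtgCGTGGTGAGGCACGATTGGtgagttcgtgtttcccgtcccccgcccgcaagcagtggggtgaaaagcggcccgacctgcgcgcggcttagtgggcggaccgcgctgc
Dnajc3: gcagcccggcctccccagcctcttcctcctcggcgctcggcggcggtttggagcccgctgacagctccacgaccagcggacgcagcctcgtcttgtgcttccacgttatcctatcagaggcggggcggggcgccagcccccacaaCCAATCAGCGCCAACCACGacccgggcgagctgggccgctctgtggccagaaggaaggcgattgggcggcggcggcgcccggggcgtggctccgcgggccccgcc
They lie at chr3:50443614-50443863 (minus strand), chr2:119350992-119351241 (plus), chr10:86705445-86705694 (minus) and chr14:118937682-118937931 (plus). Slc7a11 and Hsp90b1 hold 2 matches each and the others 1. Chac1, a glutathione-degrading enzyme, read 6.80 and 27.01 CPM in MOZ-TIF2 cells and 0.959 and 1.28 CPM in fresh cells (log2 difference 3.91, SE 0.84, edgeR adjusted p = 0.024).

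Lysosomal genes rose for 12 of 28 (42.9%, against 11.3% of all genes) and fell for 2 (7.14%, against 12.4%), with a median of 0.76. The empty-vector cells, set against the same fresh libraries, had 18 of these genes higher and 1 lower, with a median of 1.18. In that comparison 21% of all genes were higher. Cd63, a membrane protein of lysosomes and granules, read 816 and 571 CPM in MOZ-TIF2 cells and 138 and 148 CPM in fresh cells (log2 difference 2.28, SE 0.28, edgeR adjusted p = 0.0054), and Lamp2 740.2 and 460.3 CPM in MOZ-TIF2 cells and 131 and 177 CPM in fresh cells (log2 difference 1.96, SE 0.32, edgeR adjusted p = 0.011). Gla, alpha-galactosidase, read 78.2 and 60.0 CPM in MOZ-TIF2 cells and 13.3 and 14.6 CPM in fresh cells (log2 difference 2.31, SE 0.23, edgeR adjusted p = 0.0027). The cathepsin gene Ctsh fell, at 2.21 and 0.817 CPM in MOZ-TIF2 cells and 60.8 and 60.3 CPM in fresh cells (log2 difference -5.31, SE 0.56, edgeR adjusted p = 0.0034). The letters TCACGTGA, the core of the lysosomal CLEAR element, lay in 4 of 21 listed windows (19%), against 1.66% of tested genes with a window and 0.785% of all windows. Of these 4 genes 2 were called higher and none lower. Gla (chrX:134601006-134601255, minus strand) held 2 matches, in capitals.
Gla: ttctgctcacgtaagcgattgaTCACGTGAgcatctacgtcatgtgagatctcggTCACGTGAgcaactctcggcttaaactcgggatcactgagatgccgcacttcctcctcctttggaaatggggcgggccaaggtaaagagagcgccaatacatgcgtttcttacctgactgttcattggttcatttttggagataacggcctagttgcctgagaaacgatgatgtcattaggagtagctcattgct
Of 26 iron and redox genes 5 rose and 6 fell. Ferritin chains went apart, with the light chain Ftl1 at 6382 and 6494 CPM in MOZ-TIF2 cells and 1990 and 1486 CPM in fresh cells (log2 difference 1.89, SE 0.37, edgeR adjusted p = 0.019) and the heavy chain Fth1 at 583 and 394 CPM in MOZ-TIF2 cells and 1796 and 1498 CPM in fresh cells (log2 difference -1.75, SE 0.31, edgeR adjusted p = 0.015). Ferritin genes have many processed copies, so their counts are uncertain. Ncoa4, the receptor that takes ferritin to lysosomes, read 685 and 524 CPM in MOZ-TIF2 cells and 180.1 and 234 CPM in fresh cells (log2 difference 1.55, SE 0.27, edgeR adjusted p = 0.013). The iron exporter Slc40a1 fell, at 43.8 and 94.02 CPM in MOZ-TIF2 cells and 218 and 233 CPM in fresh cells, as did the ferrireductase Steap3, at 25.5 and 19.1 CPM in MOZ-TIF2 cells and 135 and 153 CPM in fresh cells (log2 difference -2.70, SE 0.49, edgeR adjusted p = 0.015). Nfe2l2, the oxidative stress factor NRF2, read 128 and 121 CPM in MOZ-TIF2 cells and 117 and 141 CPM in fresh cells and did not pass (edgeR adjusted p = 0.88). Of the 9 called genes named, 1 were still called without fresh replicate 1 and 2 without fresh replicate 2, and Ctsh was called without each in turn. Steap3 was not called without MOZ-TIF2 replicate 2.

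**Figure D5:**
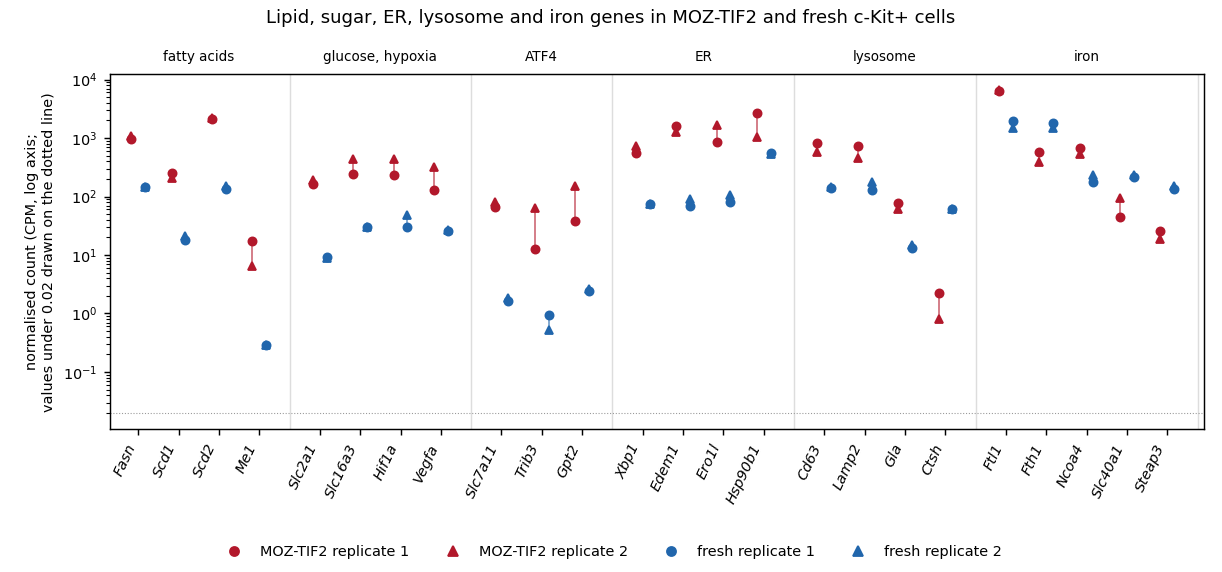
Normalised counts (CPM, log axis) of lipid, glucose, ATF4, ER, lysosomal and iron genes in MOZ-TIF2 (red, left) and fresh (blue, right) libraries, circles for replicate 1 and triangles for replicate 2. Most genes shown lie above fresh cells without overlap, and Ctsh, Fth1, Slc40a1 and Steap3 lie below.

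Growth machinery showed few calls by edgeR, and more by DESeq2. None of 24 ribosome synthesis genes passed the edgeR test, with 2 at an unadjusted p under 0.05 and 1 by DESeq2. None of 19 nucleotide synthesis genes passed the edgeR test, with 4 at an unadjusted p under 0.05 and 4 by DESeq2. Of 18 citrate cycle genes only Idh1 did, at 197 and 149 CPM in MOZ-TIF2 cells and 42.3 and 46.7 CPM in fresh cells (log2 difference 1.96, SE 0.23, edgeR adjusted p = 0.0045), and of 40 ribosomal protein genes 1 rose and 1 fell, but 17 fell by DESeq2. Small shifts were one-sided, since 37 of the 40 ribosomal protein genes were lower without overlap, with a median of -0.56, and 22 of 28 nuclear respiratory chain genes, of which 3 were called lower (9 by DESeq2), with a median of -0.51, against 36.3% of all genes. Nop56, a nucleolar protein, read 272 and 193 CPM in MOZ-TIF2 cells and 249.8 and 217 CPM in fresh cells, and Cs, citrate synthase, 354 and 308 CPM in MOZ-TIF2 cells and 336 and 372 CPM in fresh cells, both with overlap of the groups. Myc read 191 and 288 CPM in MOZ-TIF2 cells and 248 and 205 CPM in fresh cells (edgeR adjusted p = 0.92). Of the 12 genes of the MYC network 3 rose and 2 fell. Those that rose include Mlxip, a glucose-responsive partner of MLX, at 71.6 and 100.2 CPM in MOZ-TIF2 cells and 24.2 and 29.3 CPM in fresh cells (log2 difference 1.68, SE 0.25, edgeR adjusted p = 0.0093). In the retinoid list 2 of 13 rose and 2 fell. Aldh1a1, which makes retinoic acid, had no counts in MOZ-TIF2 cells, against 64.2 and 67.4 CPM in fresh cells, at least 1560-fold lower. Cyp26a1, which breaks retinoic acid down, rose, at 18.2 and 2.95 CPM in MOZ-TIF2 cells and 0.147 and 0 CPM in fresh cells (ratio of MOZ-TIF2 to fresh 167, 95% counting interval 46 to 1380). Of 17 NOTCH, WNT and TGF-beta genes 3 rose and 5 fell, and Lef1, a transcription factor of the WNT pathway, read 0.3 and 0.175 CPM in MOZ-TIF2 cells and 51.3 and 61.3 CPM in fresh cells (log2 difference -7.85, SE 0.74, edgeR adjusted p = 0.0024). Of 9 aryl hydrocarbon receptor genes 3 rose and 1 fell. Homing genes had 1 higher and 4 lower of 28, chemokines 0 and 3 of 17, cytokine feedback genes 2 and 2 of 19, imprinted genes 0 and 2 of 6, and mitochondrially encoded genes 0 and 1 of 13. Of 15 complement and coagulation genes, F7 and F10 rose and C1qa fell. F10, coagulation factor X, which lies 1499 bases from F7, read 230.2 and 505 CPM in MOZ-TIF2 cells and 17.7 and 19.6 CPM in fresh cells (log2 difference 4.30, SE 0.46, edgeR adjusted p = 0.0036). For these groups, of the 6 called genes named, 1 were still called without fresh replicate 1 and 1 without fresh replicate 2, and Lef1 was called without each in turn. Cyp26a1 was not called without MOZ-TIF2 replicate 1.

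The largest rises over all genes took in secreted and membrane proteins outside these lists. Nov, a secreted matricellular protein also named CCN3, had 20.6 and 206 CPM in MOZ-TIF2 cells and no counts in fresh cells, at least 1130-fold higher, and Adgrb1, an adhesion receptor, had 14.4 and 14.1 CPM in MOZ-TIF2 cells against none in fresh cells, at least 146-fold higher. Elavl2, an RNA-binding protein known from neurons, read 12.1 and 79.2 CPM in MOZ-TIF2 cells and 0 and 0.0582 CPM in fresh cells (ratio of MOZ-TIF2 to fresh 1370, 95% counting interval 246 to 54100). Cyp11a1, which turns cholesterol into pregnenolone, read 392 and 961 CPM in MOZ-TIF2 cells and 1.48 and 1.63 CPM in fresh cells (log2 difference 8.76, SE 0.62, edgeR adjusted p = 0.0012) and 3032 and 2879 CPM in empty-vector cells. Lipg, endothelial lipase, read 381 and 446 CPM in MOZ-TIF2 cells and 0.959 and 1.86 CPM in fresh cells (log2 difference 8.17, SE 0.72, edgeR adjusted p = 0.0021). Its MOZ-TIF2 libraries lay close together and it was called without either fresh library in turn. Stc2, a secreted glycoprotein, read 53.8 and 235 CPM in MOZ-TIF2 cells and 0.59 and 0.291 CPM in fresh cells (log2 difference 8.38, SE 1.27, edgeR adjusted p = 0.0093), and Vcan, the proteoglycan versican, 21.5 and 224 CPM in MOZ-TIF2 cells and 0.443 and 0.349 CPM in fresh cells (log2 difference 8.27, SE 1.37, edgeR adjusted p = 0.012). Gpnmb, a glycoprotein of lysosomes, read 22.8 and 91.1 CPM in MOZ-TIF2 cells and 0.221 and 0.116 CPM in fresh cells (log2 difference 8.40, SE 1.48, edgeR adjusted p = 0.014). Like Cyp11a1, Nov, Vcan and Gpnmb were also called higher in empty-vector cells than in fresh cells. There they read 171 and 32.8 CPM, 19.7 and 30.9 CPM, and 146 and 938 CPM. Adgrb1, Elavl2, Lipg and Stc2 were not called in that comparison. Nov, Elavl2, Stc2, Vcan and Gpnmb were all far higher in MOZ-TIF2 replicate 2 than in replicate 1. The 15 largest gains in CPM among called genes also included Pkm, pyruvate kinase, at 2275 and 2791 CPM in MOZ-TIF2 cells and 750.2 and 724 CPM in fresh cells (log2 difference 1.78, SE 0.31, edgeR adjusted p = 0.013), Aldoa, an aldolase, at 1453 and 2821 CPM in MOZ-TIF2 cells and 598 and 526 CPM in fresh cells, Mlec, an ER lectin, at 2205 and 1773 CPM in MOZ-TIF2 cells and 357 and 436 CPM in fresh cells (log2 difference 2.33, SE 0.30, edgeR adjusted p = 0.0061), Mbnl1, a splicing regulator, at 2013 and 1945 CPM in MOZ-TIF2 cells and 384 and 559 CPM in fresh cells (log2 difference 2.07, SE 0.31, edgeR adjusted p = 0.009), and Dstn, an actin-severing protein, at 1839 and 1187 CPM in MOZ-TIF2 cells and 348 and 384 CPM in fresh cells (log2 difference 2.05, SE 0.30, edgeR adjusted p = 0.0085). The 15 largest losses also included Car2, a carbonic anhydrase, at 4.26 and 4.75 CPM in MOZ-TIF2 cells and 1858 and 2003 CPM in fresh cells (log2 difference -8.74, SE 0.48, edgeR adjusted p = 0.00092), and Car1, its relative in red cells, with no counts in MOZ-TIF2 cells, against 1235 and 1086 CPM in fresh cells, at least 27200-fold lower. Smaller losses among the 15 were those of Tpt1, a growth-related protein, at 1049 and 1133 CPM in MOZ-TIF2 cells and 2178 and 1957 CPM in fresh cells (log2 difference -0.92, SE 0.25, edgeR adjusted p = 0.046), the ribosomal protein gene Rps3a1, at 983 and 914 CPM in MOZ-TIF2 cells and 1985 and 1767 CPM in fresh cells (log2 difference -0.98, SE 0.27, edgeR adjusted p = 0.044), and Serinc3, a membrane protein, at 358 and 597 CPM in MOZ-TIF2 cells and 1268 and 1457 CPM in fresh cells (log2 difference -1.51, SE 0.33, edgeR adjusted p = 0.025). Of the 18 called genes named, 4 were still called without fresh replicate 1 and 4 without fresh replicate 2, and Cyp11a1, Lipg, Car2 and Car1 were called without each in turn. Tpt1, Rps3a1 and Serinc3 were not called without MOZ-TIF2 replicate 1. Tpt1 and Rps3a1 were not called without MOZ-TIF2 replicate 2.

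The 2 MOZ-TIF2 libraries differed from each other more than the fresh libraries did. The genes given here were chosen after their values were seen, from those with the largest differences between the 2 libraries. Higher in replicate 2 were Eno1b, an enolase copy, with 20.9 and 915 CPM in MOZ-TIF2 cells against 12.3 and 4.07 CPM in fresh cells, and Olfm4, a granule protein, with 7.07 and 200.1 CPM in MOZ-TIF2 cells against 36.6 and 26.7 CPM in fresh cells. Chil3, a secondary granule protein of the mouse, read 38.5 and 689 CPM in MOZ-TIF2 cells and 1124 and 1256 CPM in fresh cells. Higher in replicate 1 were Hpgd, which inactivates prostaglandins, with 258 and 16.98 CPM in MOZ-TIF2 cells against 40.1 and 29.2 CPM in fresh cells, Pecam1, an adhesion molecule, with 102 and 7.96 CPM in MOZ-TIF2 cells against 50.4 and 49.2 CPM in fresh cells, and Csn2, a casein gene, with 95.3 and 5.57 CPM in MOZ-TIF2 cells against none in fresh cells. The ribosomal protein genes Rpl3 and Rps18 also parted the libraries, at 788 and 44.8 CPM and 656 and 51.7 CPM in MOZ-TIF2 cells, against 1133 and 871 CPM and 888 and 797 CPM in fresh cells, and since such genes have many near-identical copies their counts are uncertain. None of these genes was called between the groups by edgeR.

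Ty1 intervals at gene starts were set beside the calls as a description. The lists hold 3676 and 4564 intervals, and whether both used the Ty1 antibody is unsure, since replicate 2 is labelled with a catalogue number given elsewhere for acetylated histone. Of 10633 tested genes with a 250-base window, 13.3% had an interval of both replicates there. The share was 21.3% for genes called higher, 3.44% for genes called lower and 13.6% for genes not called. The share also moved with level, and the level of a called gene moves with its call. When genes were put in 4 equal groups by their MOZ-TIF2 level, the shares for genes called higher, called lower and not called were 34.1%, 18.4% and 29.6% in the top group and 12.9%, 11.1% and 13.1% in the next. When they were grouped by their fresh level, the shares were 39%, 10.1% and 27.6% in the top group and 27.9%, 4.01% and 14.3% in the next, so the calls lay further apart than in the split by MOZ-TIF2 level. Of 88 genes that rose by more than 5 on the log2 scale, 6.82% had one. By list, 10 of 21 unfolded protein response genes (47.6%) and 9 of 18 stem cell factors had one, against 1 of 21 lysosomal genes and 0 of 12 stem cell surface genes. These are small lists out of 59 and were not matched for level, so their shares tie no interval to a call. Single genes with an interval of both replicates at the start were Gfi1 (chr5:107721402-107727151 in replicate 1), Edem1 (chr6:108828502-108829651) and Tet2 (chr3:133543202-133544851).

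Called genes often lay next to each other on the chromosome. Of 1655 genes called higher with a place in the RefSeq table (GRCm38.p6), 494 (29.8%) had a neighbour called higher among tested genes, against 21.2% of all 14484 placed genes. Of 1836 genes called lower, 649 (35.3%) had a neighbour called lower, against 22.9%. Pairs with both log2 differences over 4 were Hoxa10 with Hoxa11, F7 with F10, Hebp2 with Arfgef3, Cdo1 with Atg12 and Myrf with Dagla, among others, and these pairs were picked out after their values were seen. Gene copies that share reads, such as the Serpinb9 family, can make such pairs too.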

How the data were processed

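Libraries were made from poly(A) RNA by a kit that keeps the strand, per the labels' protocols. The authors deposited estimated counts per gene (Salmon 0.13.0 and GRCm38 are named in the submitters' processing notes, with no role), and these expected counts, given with decimals, were rounded to whole numbers here. Depths were 12397486 to 34463851 deposited counts a library. Genes were kept with edgeR's filterByExpr (15224 of 35267, 43.2%). TMM scaling and edgeR 4.0.16 (R 4.3.3) quasi-likelihood tests were fitted on all 6 libraries of the table, so that 3 groups share the spread, with Benjamini-Hochberg adjustment over all genes tested and a threshold of 0.05. The test was tried on simulated counts first. Groups were taken from the labels.

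Alternatives were RLE size factors, no filter, DESeq2 1.42.0, the 4 libraries alone, a replicate block and leaving out each library. For genes at 0 in both libraries of a group the text gives a bound against 3 counts over that group (0.0423 CPM in MOZ-TIF2, 0.0976 CPM in fresh cells), and one with 1 to 3 counts as a ratio with an exact 95% counting interval, which covers counting error only. No ratio of such genes counts the spread between libraries.

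The 59 gene lists (1122 genes, of which 1076 were tested), and the comparison itself, were chosen with earlier results of these data known. Genes named are list members, the 15 largest rises and falls at 10 CPM or more without overlap, and the 15 largest gains and losses in CPM. Those with values in each library are the first gene of each role, up to 4 called members of a list with the smallest p at 5 CPM or more, and others chosen after their values were seen.

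Ty1 intervals are lists deposited for each of 2 samples, with starts and ends and no score, made with a caller not given in the sources used here (Bowtie2 is named in the processing notes). Promoter windows and gene order come from RefSeq tables of GRCm38.p6. Single-cell tables and the HOXA9 lines were not used here. Some genes of the lists are not reported here by name.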

Additional observations from a re-analysis of the deposited data

How the results depend on the processing

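Of the settings tried, RLE size factors, no filter on low counts, the 4 libraries of the comparison alone and DESeq2 kept the numbers of higher and lower genes within 1.5 times (1611 and 1938, 1767 and 1918, 1876 and 2084, 2457 and 2514), and the median difference of all genes stayed within 0.1 on the log2 scale. Leaving out 1 library gave 374 to 3526 genes in all, 82 to 1655 higher and 292 to 1886 lower. The lowest numbers came without a fresh library, when the lone fresh library was assumed to vary like the other groups. The replicate block, with the replicate number as a covariate, gave 2094 genes, 931 higher and 1163 lower. It called 0 of 34 replication genes lower, against 5. Deviations of same-numbered libraries correlated at -0.0895 between MOZ-TIF2 and fresh cells, -0.0933 between MOZ-TIF2 and differentiated cells and -0.0106 between fresh and differentiated cells. With 2 libraries a group these values cannot exclude that same-numbered libraries were paired. The labels give them a shared number and nothing more. Why the numbers of calls moved was not tested.

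No gene that was called and given with its CPM changed its direction under any setting tried. Some genes named without a call did, and their log2 differences with 1 library left out ran as follows: Cma1 -1.78 to 0.95, Cs -0.20 to 0.00, Csf3r -0.82 to 0.07, Ddit3 -0.25 to 0.63, Ebp -0.10 to 0.43, Elane -0.36 to 0.74, Hoxa7 -0.71 to 1.04, Lmo2 -0.59 to 0.38, Mcl1 -0.16 to 0.37, Myc -0.25 to 0.35, Nfe2l2 -0.21 to 0.10, Nop56 -0.27 to 0.23, Runx1 -0.34 to 0.01 and Slc25a37 -0.23 to 0.35. Not followed in this way were Hmga1b, Socs2, Cish and, Chil3 apart, the genes picked for the spread between the MOZ-TIF2 libraries. Among these, the fresh values of Olfm4, Hpgd and Pecam1 lay between the values of the MOZ-TIF2 libraries. Nop56 also stood at 0.02 without the filter. With 2 libraries a group, the fresh libraries hold the fewest counts, and a gene at 0 in both of them could still stand at up to 0.0976 CPM.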
